A study of Rattus norvegicus with 12 samples.

Results

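Insulin-like growth factors (IGFs) were followed here through 10 genes of the rat retina: the ligand genes Igf1 and Igf2, the receptor genes Igf1r and Igf2r, and the binding protein genes Igfbp2, Igfbp3, Igfbp4, Igfbp5, Igfbp6 and Igfbp7. The genes were chosen by name, each matched 1 row of a deposited table of 30560 genes, and all 10 were among the 16260 genes with enough counts to be tested. Each of 12 libraries held total RNA from the retina of a different rat. Controls were 6 rats with 2 µL of PBS injected into the vitreous (PBS 1 to PBS 6), and the other 6 had 2 µL of 20 mM NMDA by the same route (NMDA 1 to NMDA 6). NMDA activates a class of glutamate receptors, and an overdose injures ganglion cells and other neurons of the inner retina, which serves as a model of the damage in glaucoma. It acts as an acute excitotoxic injury and does not raise eye pressure. The sources used here state no strain, sex, age or time from injection to collection.

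IGF1 and IGF2 are small secreted proteins related to insulin. Both activate the IGF1 receptor, a tyrosine kinase that signals through insulin receptor substrates and SHC adaptors to the AKT and MAP kinase pathways and favours the survival of neurons. The IGF2 receptor carries no kinase: it takes IGF2 up for breakdown and delivers lysosomal enzymes tagged with mannose 6-phosphate. IGF binding proteins hold the ligands in tissue fluid, block or prolong their action, and are cut by proteases such as the pappalysins. IGFBP7 binds IGFs only weakly and is known as a protein of vessels and matrix.

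Total counts ran from 16415611 to 34022023 per library. All of the 6 rod markers were present, with a summed level of 33420 to 49270 CPM (counts scaled by the TMM-adjusted library total) in every library. The summed ganglion cell markers (8 genes, 7 lower) ran from 683 to 822 CPM with PBS and from 161 to 470 CPM with NMDA. Libraries of both groups differed in genes of pericytes and of tissues that border the retina. NMDA 3 had the highest summed pericyte, fibroblast, pigment epithelium and ciliary epithelium markers of its group and PBS 5 the highest of its own, while NMDA 1 had the lowest fibroblast, pigment epithelium, ciliary and lens markers. The pericyte (with smooth muscle), fibroblast, pigment epithelium and ciliary lists together are called bordering-tissue markers below. Pericytes also lie on vessels of the retina itself, so that this level is not one of neighbouring tissue alone. For 7 pigment epithelium markers in the table, the sum was 415 CPM in NMDA 3, 335 CPM in PBS 5, 24.4 CPM in NMDA 1 and 50.3 to 182 CPM in the other libraries. Results that rest on these libraries are therefore given with and without them. In a whole retina, fewer cells of a type and less RNA per cell cannot be told apart.

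The question put to these genes was whether NMDA-injected retinas differed from PBS-injected ones. Igf2 was the 1 member that fell and Igf1r the 1 that rose (edgeR, adjusted over all genes tested, threshold 0.05), and the other 8 did not pass. Of all genes tested, 37.9% were called, 20.4% higher and 17.5% lower, and 53.8% of all calls were in the higher direction (64.6% when scaled by library size only). The 2 of 10 members called were thus no more than the background. The unadjusted p was under 0.05 for these 2 members alone. The median log2 fold change of the 10 members was 0.10, against 0.01 for all genes tested, with 6 estimates above 0 and 4 below. Without NMDA 3, 4 members were called lower (Igf1, Igf2, Igfbp4 and Igfbp5) and the median was -0.21.

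**Figure D1:**
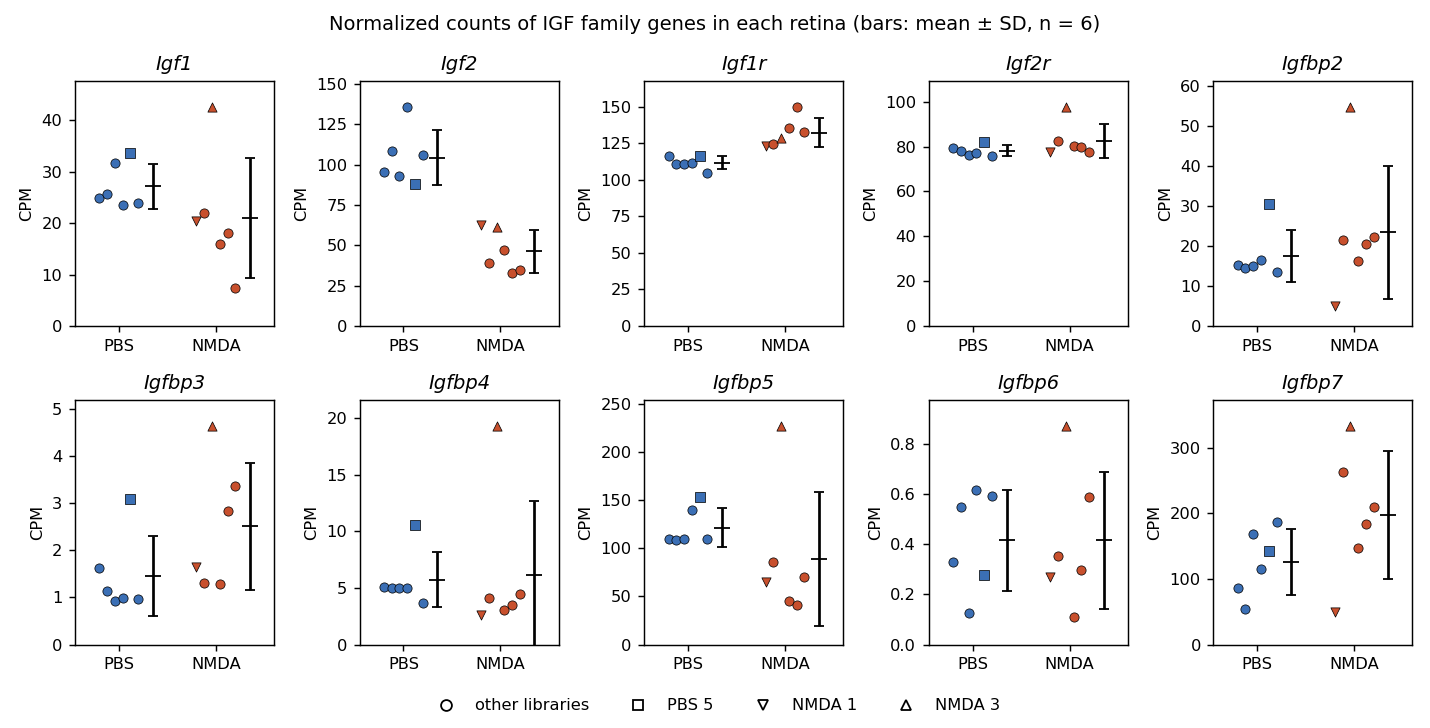
Normalized counts (CPM, linear axes from 0) of the 10 genes in each of 12 retinas, blue for PBS and red for NMDA, with the mean and SD of 6 libraries beside them (the lower arm for Igfbp4 with NMDA is cut at 0). A square marks PBS 5, a triangle pointing down NMDA 1 and a triangle pointing up NMDA 3, which was the highest NMDA library for 8 of the 10 genes.

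Levels between genes were compared on the length-scaled FPKM values deposited by the authors. With PBS, Igfbp7 stood first at 91.1 ± 36.7 FPKM (SD, n = 6), and its lowest library lay above the highest library of every other member. Igf1r followed at 23.5 ± 0.965, Igf2 at 22.5 ± 3.72, Igfbp5 at 20.5 ± 3.44 and Igfbp2 at 13.1 ± 4.86 FPKM, and each of these neighbours overlapped the next in its range over libraries. Igf2r at 8.18 ± 0.273, Igf1 at 4.37 ± 0.721 and Igfbp4 at 2.23 ± 0.963 FPKM came next, with Igf2r clear of both its neighbours and Igf1 and Igfbp4 overlapping. Igfbp3 at 0.592 ± 0.347 and Igfbp6 at 0.421 ± 0.203 FPKM were the lowest and overlapped each other. In the NMDA group Igfbp7 and Igf1r kept the first places at 149 ± 73.5 and 28.7 ± 2.46 FPKM. Igf2 had rank 3 of 10 with PBS and rank 5 with NMDA, at 10.3 ± 2.80 FPKM, below Igfbp2 (18.1 ± 12.8) and Igfbp5 (15.5 ± 12.1), whose ranges overlapped its own.

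Igf2, the ligand gene that is imprinted and best known from fetal growth, fell. Its level ran from 88.2 (PBS 5) to 136 CPM (PBS 4), with a median of 101 CPM, in the PBS group, and from 33.2 (NMDA 5) to 62.8 CPM (NMDA 1), with a median of 43.0 CPM, in the NMDA group. Every NMDA library lay below every PBS library, which held in the lower direction for 8.66% of all genes tested. The means were 104.5 ± 17.1 and 46.4 ± 13.2 CPM (SD, n = 6 each), a 2.25-fold lower level (log2 fold change -1.17 ± 0.18 SE, 95% interval -1.56 to -0.79; edgeR adjusted p = 0.000401). The call held in each of the 25 other settings tried, with a log2 fold change of -1.08 at the weakest. Counts behind these values were 998 to 3738 per library. The 2 NMDA libraries with the highest Igf2, NMDA 1 and NMDA 3 (61.6 CPM), were also the NMDA libraries with the highest ganglion cell (426 and 470 CPM), amacrine (1174 and 1195 CPM) and Müller glia markers (3102 and 3272 CPM). Summed Müller glia markers (7 genes, 5 lower and 1 higher) moved in the same direction, from 3909 to 5744 CPM with PBS to 2341 to 3272 CPM with NMDA. So did amacrine (7 of 7 lower) and rod markers (4 of 6 lower). Of 7 pigment epithelium markers 3 were lower and 0 higher, with sums of 119 to 335 CPM with PBS and 24.4 to 415 CPM with NMDA. The part of these cells in the fall of Igf2 was not tested. PBS 5, rich in markers of bordering tissues, had the lowest Igf2 of its group. NMDA 3, also rich in them, and NMDA 1, poor in most of them, had the 2 highest of theirs. With the level of those markers as a covariate the log2 fold change was -1.18, and the part of these tissues in Igf2 was not tested.

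Igf2 lies on chromosome 1 (197814410 to 197823018 in the deposited table, for which the sources used here name no build; ENSRNOG00000020369). H19, the noncoding gene that shares its imprinting control, is the next gene to the left, 81275 bases away. H19 had only 2 to 37 counts per library and a log2 fold change of 0.30 (edgeR adjusted p = 0.695). The table also lists Mir483 inside Igf2, at a mean of 0.0271 CPM. Agt and Tspan5 were among the 3 genes with the most similar pattern to Igf2, once each group's mean was subtracted from log2 CPM (Pearson r = 0.926 and 0.917 over 12 libraries, among 12573 genes compared).

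RefSeq gives starts for all 10 members in the rat assembly GRCr8, which is used here for sequence only. The 250 bases before each start were searched on both strands for 6 short motifs, chosen with these sequences in view: TATAAA (a core promoter element), CACGTG (E-box), GGGCGG (GC box), TGANTCA (AP-1), TTCNNNGAA (STAT) and GTAAACA (forkhead). The 150 bases before a start are shown for Igf2 and Igf1r, the members that passed the test, in the direction of transcription. Capitals mark each of these motifs that lies in the stretch. The Igf2 start is the more downstream of the pair listed, and the other held none of the 6 motifs.
Igf2, chr1:207250476-207250625, minus strand: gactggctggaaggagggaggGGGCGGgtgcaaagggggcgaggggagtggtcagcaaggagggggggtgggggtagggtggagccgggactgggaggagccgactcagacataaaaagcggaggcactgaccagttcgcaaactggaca
Igf1r, chr1:130959847-130959996, plus strand: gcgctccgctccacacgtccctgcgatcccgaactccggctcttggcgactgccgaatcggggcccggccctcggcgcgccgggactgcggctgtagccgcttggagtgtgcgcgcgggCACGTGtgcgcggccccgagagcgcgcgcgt
The GC box of Igf2 is a motif found in 30.5% of the 33469 rat promoter windows, and the E-box of Igf1r one found in 5.59%. The Igf1r window also held a GC box, at position -184 from the start and so outside the stretch shown. Igf1r had the most GC-rich window of the members, 79.6% G and C with 45 CG steps, against medians of 51.2% and 5 over all windows. The Igf2 window shown had 63.6% G and C with 7 CG steps. A match describes the letters and is not a binding site.

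Igf1 encodes the ligand made in the adult by liver and, in nervous tissue, by glia and some neurons (ENSRNOG00000004517, chromosome 7, 22282930 to 22359296). It ran from 23.6 (PBS 4) to 33.7 CPM (PBS 5), with a median of 25.3 CPM, with PBS, and from 7.49 (NMDA 6) to 42.6 CPM (NMDA 3), with a median of 19.3 CPM, with NMDA. In 5 of 6 NMDA libraries Igf1 lay below every PBS library, and in NMDA 3 it lay above every one. The means of 27.2 ± 4.37 and 21.1 ± 11.7 CPM (SD, n = 6 each) gave a log2 fold change of -0.36 ± 0.31 (95% interval -1.04 to 0.31; edgeR adjusted p = 0.394). Without NMDA 3 the log2 fold change was -0.69 and passed (edgeR adjusted p = 0.0337), and without PBS 5 and NMDA 3 it was -0.62 and did not (edgeR adjusted p = 0.0641). Microglia, a known source of IGF1 in injured nervous tissue, had 9 of 10 markers higher and 1 lower, with sums of 62.3 to 90.1 CPM with PBS and 105 to 210 CPM with NMDA. Within groups, the marker lists that Igf1 followed most were those of pericytes and pigment epithelium (Pearson r = 0.725 and 0.664 of group-centred log2 levels over 12 libraries, against -0.39 for microglia). These values share libraries. NMDA 3 stood above its group mean by 1.19 for Igf1, 1.30 for pericyte and 2.38 for pigment epithelium markers. The part of any of these cells in the level of Igf1 was not tested.

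Igf2 transcripts outnumbered those of Igf1 per length in every library. The ratio of Igf2 to Igf1 in FPKM ran from 3.51 to 7.73 with PBS and from 1.94 to 6.20 with NMDA. On the log2 scale it was 2.36 ± 0.417 and 1.69 ± 0.631 (SD, n = 6 each), a difference of -0.67 that did not pass (two-sided exact permutation p = 0.0649 over 924 assignments, adjusted p = 0.0649 over the 2 ratios compared). Without NMDA 6 the difference was -0.86 (exact permutation p = 0.0216, unadjusted), and without any 1 other library it lay between -0.78 and -0.53 (unadjusted exact permutation p from 0.0541 to 0.128). This ratio, and that of Igfbp5 to Igfbp2 below, were chosen after their values were seen.

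Igf1r, the gene of the signalling receptor, rose by a small amount that was steady between rats (ENSRNOG00000014187, chromosome 1, 121550743 to 121831777). Its level was 104.7 to 116 CPM with PBS (lowest in PBS 6, highest in PBS 1, median 111 CPM) and 123 to 150 CPM with NMDA (lowest in NMDA 1, highest in NMDA 5, median 131 CPM). No PBS library reached the lowest NMDA library, a separation seen upwards in 9.43% of the genes tested. The means of 112 ± 4.28 and 132 ± 9.80 CPM (SD, n = 6 each) differed 1.18-fold (log2 fold change 0.24 ± 0.05, 95% interval 0.14 to 0.35; edgeR adjusted p = 0.00191). It was called higher in each of the 25 other settings, between 0.20 and 0.29. Summed reactive glia markers (6 genes, 4 higher) rose alongside, from 378 to 669 CPM with PBS to 920 to 1853 CPM with NMDA, and the microglial sums above did too; their part in the rise of Igf1r was not tested. Mindy1, Mcm4 and Slc26a2 had the most similar pattern to Igf1r after subtraction of the group means (Pearson r = 0.932, 0.916 and 0.912 over 12 libraries).

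Igf2r, which removes IGF2 and sorts lysosomal enzymes, was among the steadiest members between PBS rats (ENSRNOG00000014997, chromosome 1, 47979109 to 48067501). It ran from 75.7 (PBS 6) to 82.2 CPM (PBS 5, median 77.6 CPM) with PBS and from 77.7 (NMDA 1) to 97.5 CPM (NMDA 3, median 79.9 CPM) with NMDA. The groups overlapped, with 2 NMDA libraries above every PBS library and none below. The log2 fold change was 0.08 ± 0.05 and did not pass (95% interval -0.04 to 0.20; edgeR adjusted p = 0.276). Without NMDA 3 it was 0.026 (edgeR adjusted p = 0.596). With the level of bordering-tissue markers as a covariate it was 0.102 and did not pass (edgeR adjusted p = 0.0511). The promoter of Igf2r is shown because it held the E-box in 2 copies, the most of any member.
Igf2r, chr1:50526728-50526877, plus strand: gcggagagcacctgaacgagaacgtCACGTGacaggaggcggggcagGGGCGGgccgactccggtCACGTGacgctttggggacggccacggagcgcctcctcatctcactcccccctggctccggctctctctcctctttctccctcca
Of 33469 rat promoter windows, 144 (0.43%) held 2 or more copies of the E-box. Igf1r and Igfbp2 held 1 each, and the other members none.

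Among the binding protein genes no call was made with all libraries, and the spread between rats was wide. NMDA 3 was the highest NMDA library for all 6 binding protein genes and PBS 5 the highest PBS library for 4 of them. The plot of fold changes by setting shows how far these libraries set the estimates.

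**Figure D2:**
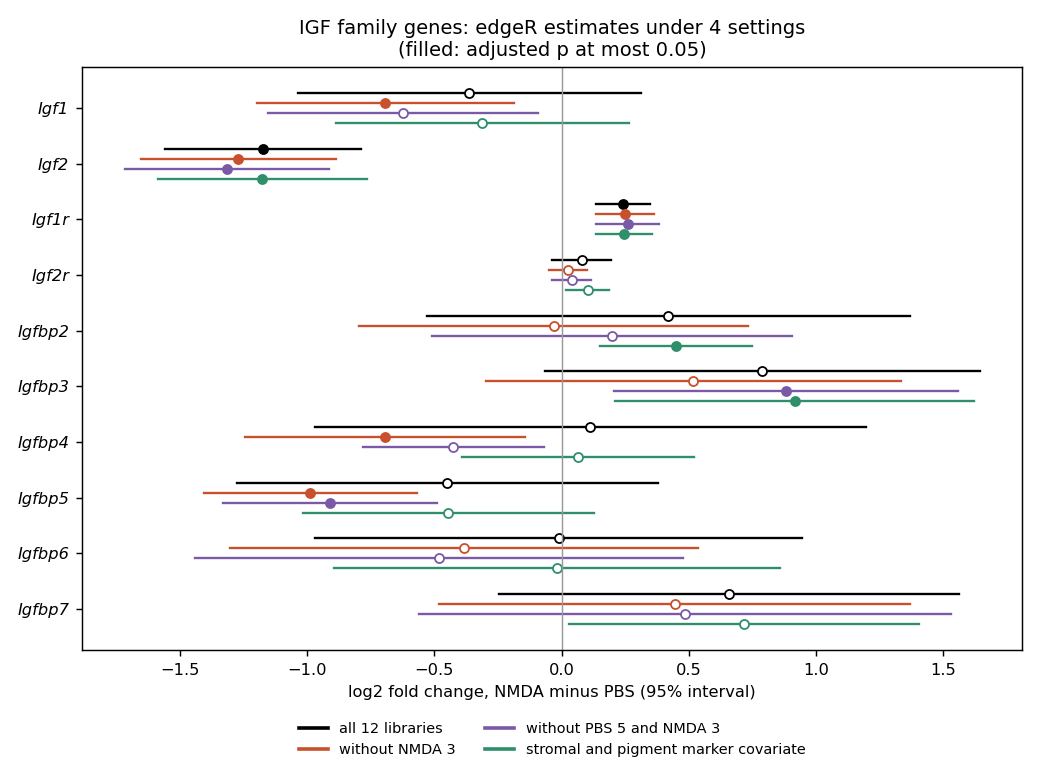
Log2 fold changes of the 10 genes (NMDA minus PBS, edgeR) with 95% intervals, with all 12 libraries, without NMDA 3, without PBS 5 and NMDA 3, and with the level of bordering-tissue markers as a covariate; filled points passed the adjusted threshold of 0.05. Igf2 and Igf1r passed in all 4 settings, while Igfbp5 moved from -0.45 to -0.99 and Igfbp4 from 0.11 to -0.69 without NMDA 3.

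Igfbp5, whose protein binds matrix and modulates IGF action, was the second most abundant binding protein transcript with PBS (ENSRNOG00000017206, chromosome 9, 74448382 to 74465156). It ran from 108 (PBS 2) to 153 CPM (PBS 5, median 109 CPM) with PBS and from 41.1 (NMDA 5) to 227 CPM (NMDA 3, median 67.0 CPM) with NMDA. As with Igf1, 5 of 6 NMDA libraries lay below all PBS libraries and NMDA 3 lay above them all. The log2 fold change was -0.45 ± 0.38 (95% interval -1.28 to 0.38; edgeR adjusted p = 0.388). It was -0.99 and passed without NMDA 3 (edgeR adjusted p = 0.00193), as it did without PBS 5 and NMDA 3 (-0.91, edgeR adjusted p = 0.00386). With the bordering-tissue covariate it was -0.45 and did not pass (edgeR adjusted p = 0.201), and with limma voom and quality weights -0.81 and passed (adjusted p = 0.037).

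Igfbp2 lies beside Igfbp5, with 5444 bases between the genes, and encodes a binding protein abundant in brain fluid and in eye tissues (ENSRNOG00000016957, chromosome 9, 74415546 to 74442937). Its level was 13.4 (PBS 6) to 30.4 CPM (PBS 5, median 15.1 CPM) with PBS and 5.02 (NMDA 1) to 54.6 CPM (NMDA 3, median 21.1 CPM) with NMDA. NMDA libraries thus held both the lowest and the highest value, and the log2 fold change was 0.42 ± 0.43 (95% interval -0.53 to 1.37; edgeR adjusted p = 0.487). Without NMDA 3 it was -0.03 (edgeR adjusted p = 0.957). With the bordering-tissue covariate it was 0.45 ± 0.14 and passed (edgeR adjusted p = 0.0208), and with PBS 5, NMDA 1 and NMDA 3 left out it was 0.42 and passed (edgeR adjusted p = 0.00435).

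The ratio of Igfbp5 to Igfbp2 in FPKM was 1.14 to 1.91 with PBS. It was 0.453 to 0.939 in 5 NMDA libraries, below every PBS library, and 2.90 in NMDA 1, above all of them. On the log2 scale the means were 0.695 ± 0.266 and -0.171 ± 0.919 (SD, n = 6 each), a difference of -0.87 (two-sided exact permutation p = 0.0455, adjusted p = 0.0649 over the 2 ratios, which does not pass). Leaving out NMDA 1 gave -1.21 (exact permutation p = 0.00216, unadjusted), and leaving out any 1 other library gave unadjusted exact permutation p from 0.0455 to 0.104. Without NMDA 1 the groups did not overlap, and that p is the smallest this test can then give. It restates the separation of the ratios above and adds no support to it. The promoters of these neighbours are shown side by side because the genes adjoin.
Igfbp2, chr9:81864661-81864810, plus strand: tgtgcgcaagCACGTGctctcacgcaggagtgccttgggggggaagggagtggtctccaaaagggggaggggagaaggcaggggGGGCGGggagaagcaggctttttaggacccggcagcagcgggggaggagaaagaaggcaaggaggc
Igfbp5, chr9:81914188-81914337, minus strand: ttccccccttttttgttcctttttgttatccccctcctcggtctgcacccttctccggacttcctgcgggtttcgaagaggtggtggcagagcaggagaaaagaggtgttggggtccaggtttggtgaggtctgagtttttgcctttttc
The genes point towards each other, on opposite strands. The Igfbp2 window held an E-box and a GC box and had 64.0% G and C, and that of Igfbp5 held none of the 6 motifs and had 51.6%.

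Igfbp7 was the most abundant member per length (ENSRNOG00000002050, chromosome 14, 30737164 to 30797314). It ran from 53.7 (PBS 2) to 187 CPM (PBS 6, median 129 CPM) with PBS and from 48.8 (NMDA 1) to 333 CPM (NMDA 3, median 196 CPM) with NMDA. Of the NMDA libraries 3 lay above every PBS library and 1 below every one. The means of 125 ± 50.6 and 198 ± 97.7 CPM (SD, n = 6 each) gave a log2 fold change of 0.66 ± 0.41 (95% interval -0.24 to 1.56; edgeR adjusted p = 0.238), and no setting brought it past the threshold. Without NMDA 1 it was 0.849 and close to the threshold (edgeR adjusted p = 0.052), and without NMDA 3 it was 0.445 (edgeR adjusted p = 0.441). With the bordering-tissue covariate it was 0.718 (edgeR adjusted p = 0.0913). Endothelium, a known site of Igfbp7, had 5 of 8 markers higher and none lower, with sums of 752 to 866 CPM with PBS and 833 to 1054 CPM with NMDA. Kdr, which was not called, was the largest term of these sums. Within groups, Igfbp7 followed fibroblast markers (mostly Fbln1; Pearson r = 0.887 of group-centred log2 levels over 12 libraries), lens (0.814), ciliary (0.709) and pigment epithelium markers (0.679) more than endothelial ones (-0.34). These values share libraries, and the part of any of these tissues in the level of Igfbp7 was not tested. The gene shares 87 bases with Polr2b in the table, and Polr2b ran from 108 to 132 CPM over all libraries. The part of this overlap in the level of Igfbp7 was not tested.

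Igfbp4, a target of the pappalysin proteases, had the most uneven NMDA group (ENSRNOG00000010635, chromosome 10, 83989591 to 84007225). With PBS it lay between 3.69 (PBS 6) and 5.08 CPM in 5 libraries and at 10.6 CPM in PBS 5. With NMDA it lay between 2.61 (NMDA 1) and 4.44 CPM in 5 libraries and at 19.3 CPM in NMDA 3. The log2 fold change was 0.11 ± 0.50 (95% interval -0.97 to 1.20; edgeR adjusted p = 0.887). Without NMDA 3 it was -0.69 (edgeR adjusted p = 0.0462), without PBS 5 and NMDA 3 it was -0.43 (edgeR adjusted p = 0.0583), and with the bordering-tissue covariate 0.06 (edgeR adjusted p = 0.841). The sign of the estimate was also negative in 4 settings that keep NMDA 3: limma voom, both FPKM fits and the fit with the replicate number as a block.

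Igfbp3, which carries most IGF in blood and is made in the eye by vascular and stromal cells, had 15 to 160 counts per library (ENSRNOG00000061910, chromosome 14, 82056347 to 82064083). It ran from 0.928 (PBS 3) to 3.09 CPM (PBS 5, median 1.06 CPM) with PBS and from 1.29 (NMDA 4) to 4.65 CPM (NMDA 3, median 2.24 CPM) with NMDA. The log2 fold change of 0.79 ± 0.40 did not pass (95% interval -0.07 to 1.64; edgeR adjusted p = 0.137). It was 1.15 and passed without PBS 5 (edgeR adjusted p = 0.0238), 0.88 and passed without PBS 5 and NMDA 3 (edgeR adjusted p = 0.0416), and 0.52 and did not pass without NMDA 3 alone (edgeR adjusted p = 0.304). Its neighbour Igfbp1, 3864 bases away, had 2 to 15 counts per library and was not tested. Igfbp6, which prefers IGF2 to IGF1, had 2 to 30 counts per library and 0.415 ± 0.200 CPM with PBS and 0.415 ± 0.272 CPM with NMDA (SD, n = 6 each). Igfbp6 did not pass, with a wide interval (log2 fold change -0.01, 95% interval -0.97 to 0.95; edgeR adjusted p = 0.989).

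**Figure D3:**
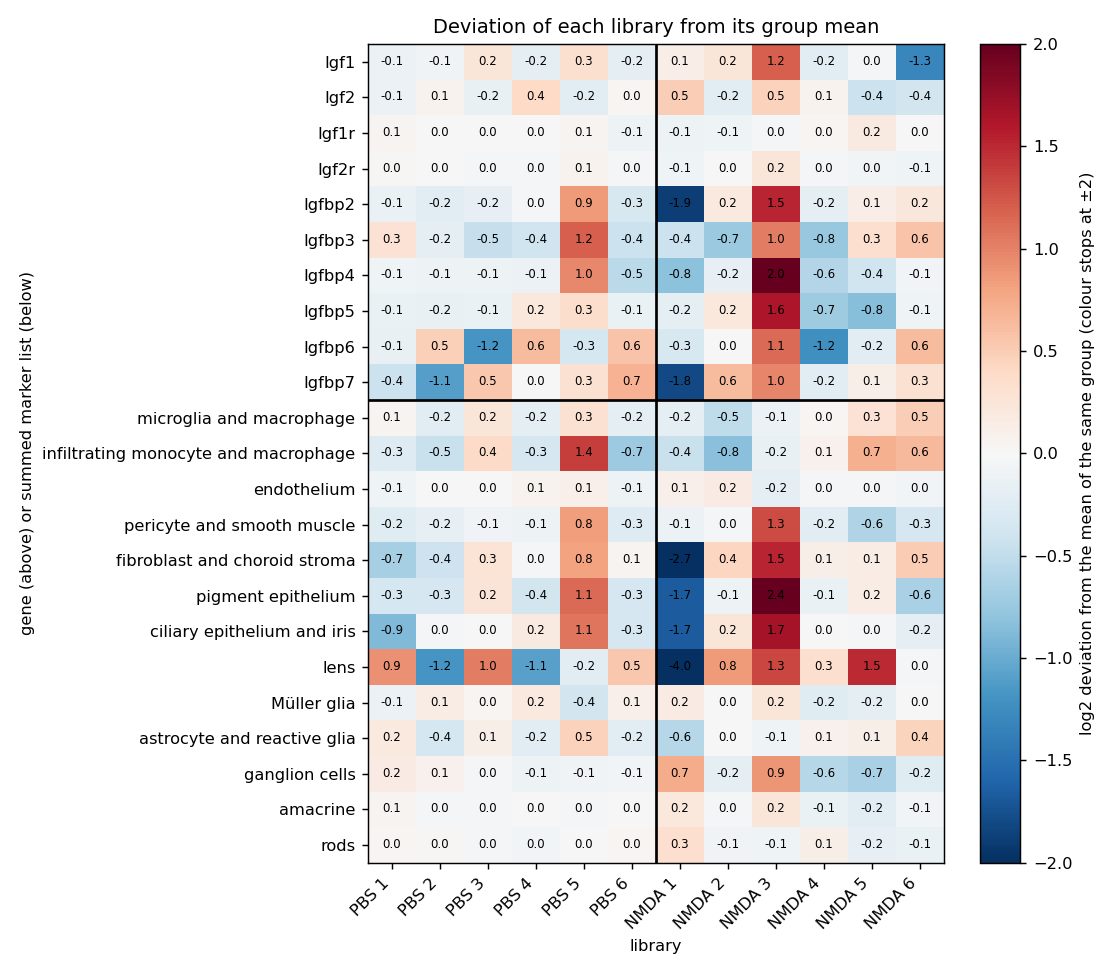
Log2 deviation of each library (columns) from the mean of its own group, for log2 CPM of the 10 genes (upper rows) and for log2 of summed marker lists plus 1 (lower rows); red is above and blue below the group mean. In the NMDA 3 column Igfbp2, Igfbp4 and Igfbp5 stand 1.53, 2.04 and 1.62 above the group mean, beside 2.38 for pigment epithelium and 1.30 for pericyte markers, while Igf2 stands at 0.46 and Igf1r at -0.04.

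Genes that carry the signal of the receptors moved in both directions. Of 36 signalling genes listed, 35 were tested, 8 rose and 6 fell (median log2 fold change -0.02, against 0.01 for all genes), and Irs4 was not found by name. These shares lie near the 20.4% and 17.5% of all genes. When scaled by library size only, and in both FPKM fits, 11 were called higher and 3 lower. Genes next to the receptor moved both ways. Irs1, of an insulin receptor substrate, fell from 31.6 ± 1.94 to 27.7 ± 2.37 CPM (SD, n = 6 each; log2 fold change -0.19, edgeR adjusted p = 0.0278; named after its values were seen), and Irs2, Irs3, Grb10 and Grb14 did not pass. Shc1, an adaptor that links the receptor to the MAP kinase pathway, rose from 34.0 ± 2.41 to 53.0 ± 6.74 CPM, and Gab1, a docking protein, from 30.9 ± 2.49 to 46.0 ± 3.88 CPM (SD, n = 6 each; log2 fold changes 0.64 and 0.57, edgeR adjusted p = 0.000132 and 8.42e-05). Sos1, an exchange factor for RAS, fell from 93.9 ± 2.58 to 83.4 ± 4.91 CPM (-0.17, edgeR adjusted p = 0.00604). Pik3r3, a regulatory subunit of PI3 kinase, fell from 168 ± 6.77 to 138 ± 4.10 CPM (-0.28, edgeR adjusted p = 0.000110). For Shc1, Gab1, Sos1 and Pik3r3 no NMDA library overlapped a PBS library.

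The 2 largest log2 fold changes among signalling genes called were those of inhibitors. Socs3, a feedback inhibitor of cytokine and insulin signalling, rose from 7.95 ± 4.94 to 56.3 ± 39.2 CPM, and Eif4ebp1, a translation repressor that mTOR inactivates, from 2.45 ± 0.687 to 6.66 ± 2.19 CPM (SD, n = 6 each; log2 fold changes 2.82 and 1.45, edgeR adjusted p = 0.00172 and 0.000827). Neither gene's groups overlapped. Akt2, a kinase gene of the pathway, rose by a small amount (0.19, edgeR adjusted p = 0.00811), and Akt1 did not pass (0.16, edgeR adjusted p = 0.0787). Akt1 and Akt2 were named outside the rule, after their values were seen. Insr and Irs2, of the insulin receptor and its substrate, had log2 fold changes of -0.04 and 0.00, chosen in the same way. Of the 35 genes tested in this list, 8 had groups that did not overlap, 5 above and 3 below. Over all genes tested the share was 18.1% (9.43% above and 8.66% below).

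**Figure D4:**
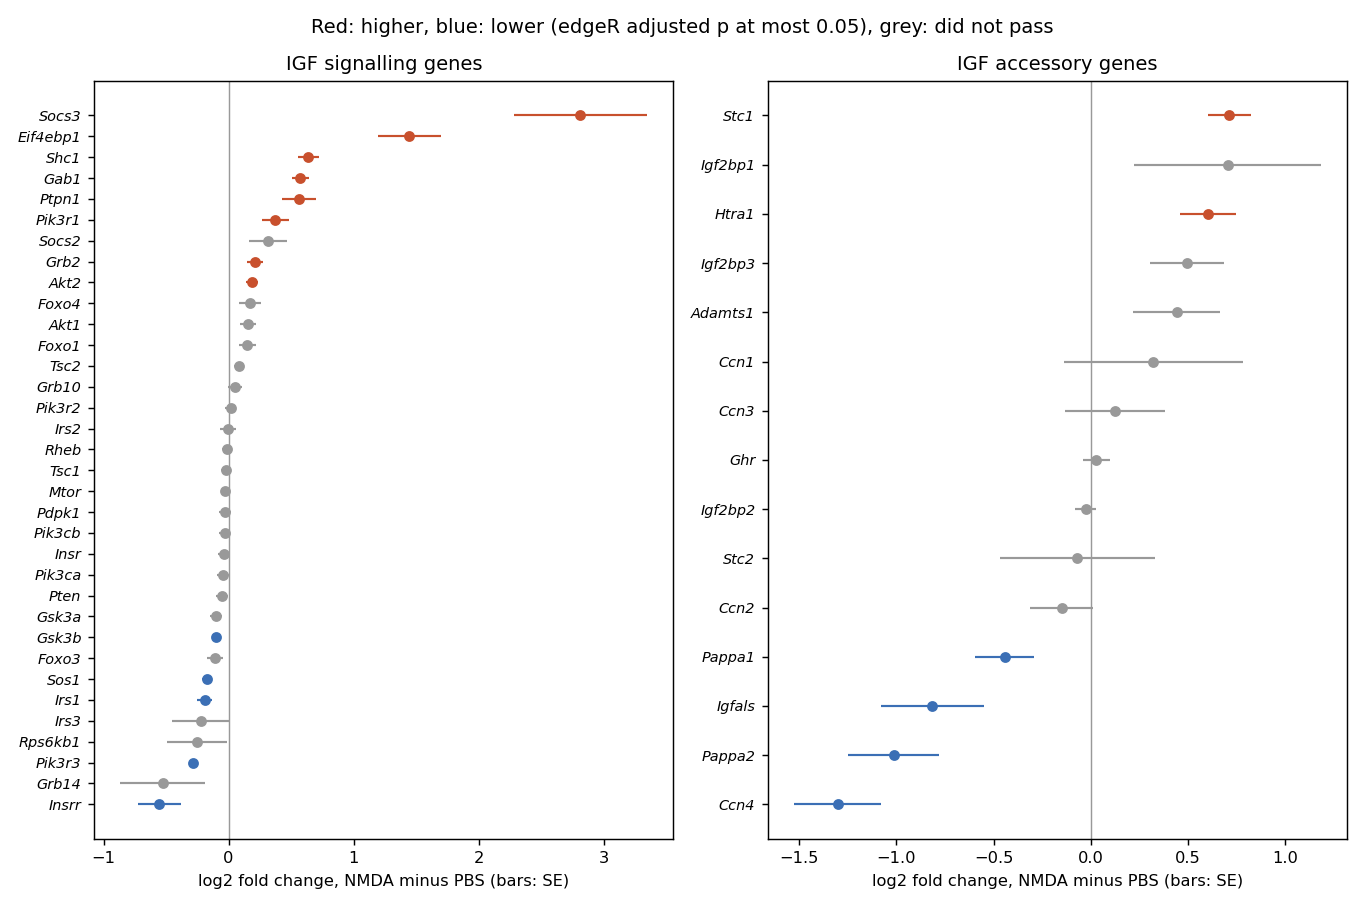
Log2 fold changes (NMDA minus PBS, edgeR, bars are SE) of the signalling genes (left, where 1 of the 35 tested is not drawn) and 15 tested accessory genes (right). Red genes were called higher, blue lower and grey did not pass; Socs3 lies farthest to the right at 2.82 and Ccn4 farthest to the left of the accessory genes at -1.30.

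Of 20 accessory genes, which process or resemble the binding proteins, carry IGF in blood, bind Igf2 mRNA or act in growth hormone signalling, 15 were tested, 2 rose and 4 fell (median 0.03). With 37.9% of all genes called, 20.4% higher and 17.5% lower, 6 of 15 is near the background. The pappalysin genes fell: Pappa2, whose protease cuts IGFBP5 and IGFBP3, from 8.65 ± 1.32 to 4.27 ± 1.80 CPM, and Pappa, listed in the table as Pappa1, whose protease cuts IGFBP4, from 6.75 ± 0.721 to 4.96 ± 1.21 CPM (SD, n = 6 each; log2 fold changes -1.01 and -0.44, edgeR adjusted p = 0.00438 and 0.0347). Stc1, whose protein stanniocalcin is an inhibitor of pappalysins, rose from 9.10 ± 0.513 to 14.9 ± 2.81 CPM, with no overlap of the groups (0.71, edgeR adjusted p = 0.000396). Htra1, a secreted protease with an IGFBP-like domain, rose from 126 ± 18.1 to 192 ± 41.0 CPM (0.60, edgeR adjusted p = 0.00620). Ccn4, a matrix protein gene of the CCN family, fell from 8.27 ± 2.29 to 3.37 ± 0.999 CPM, with no overlap (-1.30, edgeR adjusted p = 0.000715). Igfals, the acid-labile subunit that stabilises IGF in blood, fell from 0.797 ± 0.237 to 0.456 ± 0.158 CPM (-0.82, edgeR adjusted p = 0.0271). The calls of Igfals and Pappa were lost in 10 and 9 of their other settings, with adjusted p up to 0.105 and 0.0769.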

How the data were processed

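Members and gene lists were chosen with earlier results of these data known. Whole numbers per gene were deposited in columns headed as counts, beside FPKM, which the authors scaled by gene length and library total. The column headers do not state whether the counts were scaled. The submitters' processing notes name Bowtie2, RSEM 1.3.1 and DESeq2 1.4.5 without roles. RSEM estimates are not whole, so counts were rounded or made another way. Build, strand setting and handling of multiply matching reads are not given in the sources used here.

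Genes kept by filterByExpr (count minimum 10, total minimum 15) were scaled by TMM and tested with edgeR 4.0.16 in R 4.3.3 (robust quasi-likelihood, two-sided, treatment the only term), adjusted by Benjamini-Hochberg over all 16260 genes. Each SE is an approximation, the absolute log2 fold change divided by the square root of the test's F statistic. Intervals at 95% use this SE and the fit's degrees of freedom. The method was tested on simulated data. All members are named by rule; of the other lists, up to 6 genes with the smallest adjusted p each. Alternatives used limma 3.58.1, DESeq2 1.42.0, other scalings and filters, and fewer libraries; a covariate of bordering-tissue markers was added after the data were seen. No libraries had identical counts. Total counts were 16415611 to 34022023 per library. Some single genes of the lists and comparisons are not reported here by name, though the counts hold them.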

Additional observations from a re-analysis of the deposited data

Results flagged for a closer look

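Of 20 sets of 6 libraries (10 genes in 2 groups), 7 had a highest library farther from the next than Dixon's 95% limit for 6 samples, where chance flags about 1 in 20. In NMDA 3 these were Igfbp2 at 54.6 CPM, Igfbp4 at 19.3 CPM, Igfbp5 at 227 CPM and Igf2r at 97.5 CPM. In PBS 5 they were Igfbp2 at 30.4 CPM, Igfbp3 at 3.09 CPM and Igfbp4 at 10.6 CPM. The same 2 libraries had the highest summed pericyte markers of their groups, 358 and 264 CPM, against 95.2 to 142 CPM in the other libraries, and the part of these cells in each flagged value was not tested.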

How the results depend on the processing

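Igf2 and Igf1r kept their direction and call in all 25 other settings. The count of genes called ran from 5287 to 7090, against 6167, and 64.6% of calls were higher with library size only, against 53.8%. Leaving out 1 library gave 1 to 2 members higher, 1 to 4 lower and a median of -0.207 to 0.207, and for accessory genes 2 to 4 higher and 2 to 4 lower. Without PBS 5 and NMDA 3 together, 2 members were higher and 2 lower (median -0.19); without NMDA 1 as well, 3 and 2 (median -0.15), and 5 accessory genes were higher. The covariate of bordering-tissue markers gave 3 members and 4 accessory genes higher. Limma voom with quality weights gave 2 members lower and a median of -0.0946. Signalling genes called higher numbered 11 and lower 3 with library size only and with both FPKM fits, and accessory genes called lower numbered 2 with log2(FPKM + 0.1).

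Estimates of Igfbp4, Igfbp6 and Igfbp2 changed sign between settings. That of Igfbp4 was -0.25 with limma voom, -0.0695 and -0.16 with log2(FPKM + 1) and log2(FPKM + 0.1), -0.43 without PBS 5 and NMDA 3, -0.35 without NMDA 1 as well, and -0.69 to 0.38 leaving out 1 library. That of Igfbp6 was 0.0401 with library size only, 0.00619 with log2(FPKM + 1), and -0.38 to 0.18 leaving out 1 library. That of Igfbp2 was -0.0307 to 0.65 leaving out 1 library. The causes were not tested. With the replicate number as a block Igfbp4 was at -0.25 (edgeR adjusted p = 0.707), the count of calls changed by less than 1.5 times, and Igfals no longer passed (edgeR adjusted p = 0.0986). Only 2 of 6 same-numbered pairs deviated together by a correlation over 0.1. Such correlations cannot tell whether same-numbered rats were handled together, and the labels name no pairing. Counts were lowest for Igfbp6, at 2 to 30 per library.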
